A study of Mus musculus with 4 samples.

Results

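The 10 genes Mrc1, Cd14, Cd68, Adgre1, Csf1r, Lyz2, Arg1, C1qa, C1qb and C1qc mark macrophages and monocytes, and their RNA was followed here in cells sorted from mouse tumours as CD31-positive and CD45-negative. They were taken by symbol from a table of 55367 gene names, in which all 10 were present. Of these, 9 had enough reads to be tested and Adgre1 had too few. Of the 4 libraries, 2 came from mice given an anti-CD93 antibody 48 hours before cell isolation (anti-CD93), and the other 2 came from mice given a control rat IgG at the same time (control IgG). In all of them KPC cells, a mouse pancreatic cancer line, had grown under the skin of C57BL/6 mice, an inbred strain with its own immune system, so host macrophages are present in such tumours. The age, sex and number of mice, and any pooling of tumours, are not given in the sources used here, so a p-value here reflects library-to-library spread, which may be technical. CD93 is a transmembrane receptor of endothelial cells, and the series asked how blocking it alters their transcriptome.

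Macrophages and monocytes carry CD45 (gene Ptprc) on their surface, so a gate on its absence is meant to leave them out. They depend on the receptor CSF1R, take up debris and sugars through receptors such as CD206 (gene Mrc1), sense lipopolysaccharide through CD14, and secrete lysozyme and the C1q chains that start the classical complement pathway. Some endothelial cells, in lymphatic vessels and liver sinusoids among others, also make CD206. In sorted bulk RNA, fewer cells of a type and less RNA per cell cannot be told apart.

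Of the 2 sort markers, the positive one was abundant and the negative one low. Pecam1, which encodes CD31, was at 1661 and 1663 CPM (reads per 1000000 assigned reads, TMM-scaled) in anti-CD93 replicates 1 and 2 and at 1685 and 1872 CPM in control IgG replicates 1 and 2. Ptprc was at 5.08 and 2.32 CPM with anti-CD93 and at 2.37 and 4.71 CPM with control IgG. The 12 pan-endothelial markers summed to 9325 to 11660 CPM over the 4 libraries. Markers of cells outside the gate were abundant too, with 1678 to 2466 CPM for 7 tumour epithelial genes and 1888 to 2931 CPM for 7 fibroblast genes. Libraries held 9364294 to 17813993 assigned reads, so that 1 read was worth 0.0565 to 0.107 CPM. Control IgG replicate 2 stood apart: olfactory and vomeronasal receptor genes took 344 CPM of its reads, against 47.8 to 49.1 CPM in the other libraries, and mitochondrial ribosomal RNA took 6.20% against 11.0% to 11.8%. Fold changes and list counts below are therefore given with it and without it. Control IgG replicates 1 and 2 are called control 1 and control 2 where a fit leaves 1 of them out. A fit without control 1 keeps control 2, the library that stood apart, as its only control. The target gene Cd93 did not pass the test (log2 fold change -0.026, SE 0.18, adjusted p = 0.976 by edgeR with all 4 libraries).

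Promoter sequences from RefSeq (GRCm38.p6, 250 bases before to 50 bases after the start) were matched by symbol for 5 of the 10 genes. Those of Mrc1, the most read of the genes, and of C1qb and C1qc, which shared a pattern over the libraries, are shown 5′ to 3′ on the gene's strand. Capitals mark the core motif of PU.1, the myeloid master transcription factor, GAGGAA or its reverse complement TTCCTC.
Mrc1 (chr2:14229164-14229463, plus strand): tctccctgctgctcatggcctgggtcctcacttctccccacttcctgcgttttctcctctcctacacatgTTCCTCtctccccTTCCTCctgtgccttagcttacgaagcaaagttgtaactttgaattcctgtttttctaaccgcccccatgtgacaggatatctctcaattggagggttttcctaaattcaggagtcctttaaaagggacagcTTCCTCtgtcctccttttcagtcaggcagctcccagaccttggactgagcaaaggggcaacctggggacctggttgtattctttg
C1qb (chr4:136886151-136886450, minus strand): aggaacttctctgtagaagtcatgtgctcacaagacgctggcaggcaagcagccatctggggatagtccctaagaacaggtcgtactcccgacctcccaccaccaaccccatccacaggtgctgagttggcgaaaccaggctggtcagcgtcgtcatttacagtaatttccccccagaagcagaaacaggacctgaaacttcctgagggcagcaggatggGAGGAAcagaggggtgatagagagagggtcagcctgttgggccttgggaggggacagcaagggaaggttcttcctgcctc
C1qc (chr4:136892865-136893164, minus strand): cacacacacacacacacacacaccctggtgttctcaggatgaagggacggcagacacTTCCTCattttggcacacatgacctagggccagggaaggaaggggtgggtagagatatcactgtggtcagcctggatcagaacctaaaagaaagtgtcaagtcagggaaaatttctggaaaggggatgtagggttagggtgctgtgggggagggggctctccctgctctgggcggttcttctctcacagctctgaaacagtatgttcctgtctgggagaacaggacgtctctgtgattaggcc
The motif lay on the opposite strand 3 times in the Mrc1 window, starting 180, 167 and 35 bases before the start. It lay once in the C1qb window, on the gene's strand 30 bases before the start, and once in the C1qc window, on the opposite strand 193 bases before it. Cd68 held 2 matches and Lyz2 held 0 in their windows. Of all 32851 promoter windows of 300 bases, 28.3% hold the motif on either strand, so these matches are a description of the sequences only. The motif TGACTCA of AP-1, searched on both strands as well, occurred 2 times in the Cd68 window and in 0 of the other 4, against 5.2% of all windows.

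Per length, all 10 genes lay below the 12 pan-endothelial markers, and their order spanned from Lyz2 down to Adgre1. As a mean over the 4 libraries, levels in RPKM (reads per kilobase of exon per 1000000 reads) were 10.8 for Lyz2 and 8.17 for Cd14, against 276 for Pecam1. The pan-endothelial markers spanned 25.7 RPKM for Erg, an endothelial transcription factor, to 644.6 RPKM for Cdh5, the endothelial cadherin. Lymphatic endothelial markers lay on both sides of Lyz2 and Cd14. Flt4, Lyve1 and Mmrn1 were above both, at 53.9, 14.9 and 13.7 RPKM. Pdpn, Prox1, Reln and Ccl21a were below both, at 5.19, 4.14, 2.20 and 0.359 RPKM. The epithelial keratin gene Krt8 was at 398.5 RPKM and the fibroblast collagen gene Col1a1 at 152 RPKM. C1qa was at 3.10 RPKM, C1qb at 2.69, Mrc1 at 2.58, Cd68 at 2.56 and Arg1 at 2.31. These 5 neighbours could not be ranked, because their ranges over the libraries overlapped, for example 1.71 to 3.80 RPKM for Mrc1 and 1.13 to 4.72 RPKM for C1qb. C1qc followed at 1.48 RPKM, Csf1r at 0.544, Adgre1 at 0.229 and Ptprc at 0.198. Pecam1 exceeded Lyz2 by 25.5-fold and Adgre1 by 1205-fold on this scale. Lyz2 stood at the 77.0th percentile of the tested genes and Csf1r at the 11.1th.

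**Figure D1:**
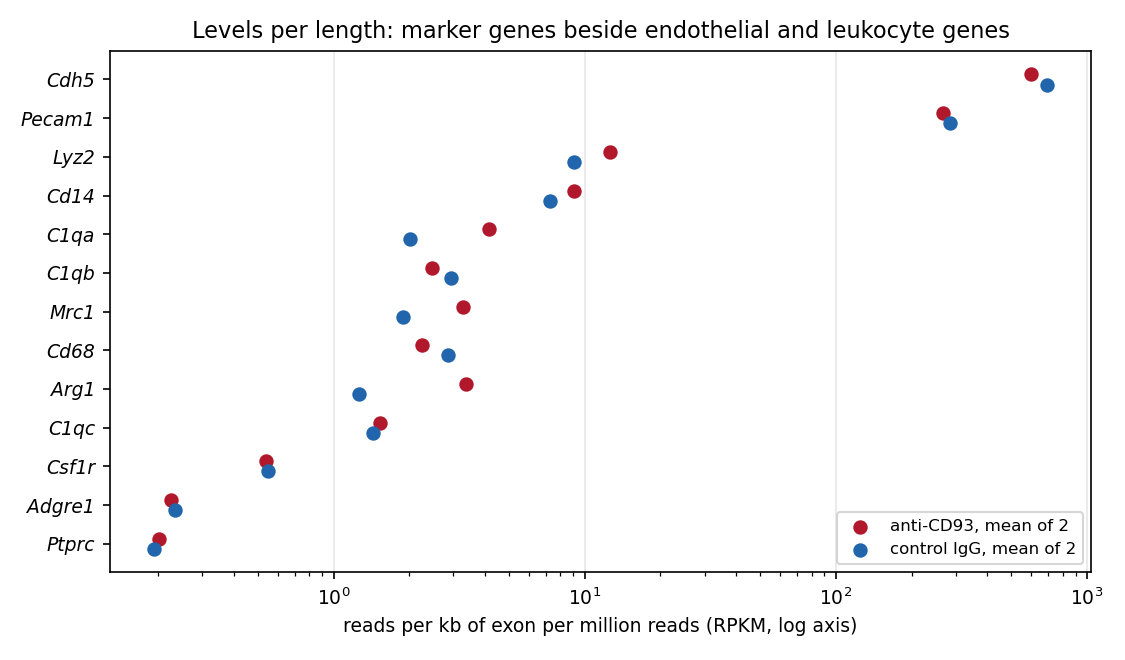
Mean level per exon length (RPKM, log axis) of the 10 marker genes, Pecam1, Cdh5 and Ptprc, as a dot for the mean of the 2 anti-CD93 libraries above a dot for the mean of the 2 control IgG libraries. Lyz2 and Cd14 are the highest of the 10, at 10.8 and 8.17 RPKM over all libraries, and all lie below Pecam1 and Cdh5.

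Between the treatments, 0 of the 9 tested genes passed edgeR's quasi-likelihood test (Benjamini-Hochberg adjusted p under 0.05), as did 0 of all 16945 genes tested (0%), where no adjusted p fell below 0.812. DESeq2, which tested all 10 genes, called 0 of them and 5 of all 33419 genes it tested. Limma-voom called 0 of the 9 and 0 of all 16945. Without adjustment, 3 of the 9 had an edgeR p under 0.05, namely Mrc1, Arg1 and C1qa, all higher with anti-CD93, against 1.99% of all tested genes higher at that threshold and 4.49% in either direction. With a library left out, 2 of the 9 passed without control 1 (26.8% of all genes), 0 without control 2 (0.0767%), 0 without anti-CD93 replicate 2 (0.0059%) and 0 without anti-CD93 replicate 1 (0%). Both anti-CD93 libraries lay above both control libraries for 4 of the 9, these 3 and Cd14, against 20.1% of all genes. Both lay below for 1, Cd68, against 19.7% of all genes. The values of 6 genes were higher and of 3 lower with anti-CD93, with a median log2 fold change of 0.31, against -0.0092 over all tested genes. With control 2 left out, 8 were higher, the median was 1.11 (0.0037 over all tested genes) and 5 had an unadjusted p under 0.05 (7.86% of all genes). After leaving out control 1, 5 were higher, the median was 0.025 (0.0010 over all tested genes) and 4 had an unadjusted p under 0.05 (39.4% of all genes). These shares describe 9 genes that were chosen with earlier results of these data known, and they were not tested. Of all genes in the marker and pathway lists described below, edgeR, DESeq2 and limma-voom called 0 each with all 4 libraries.

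**Figure D2:**
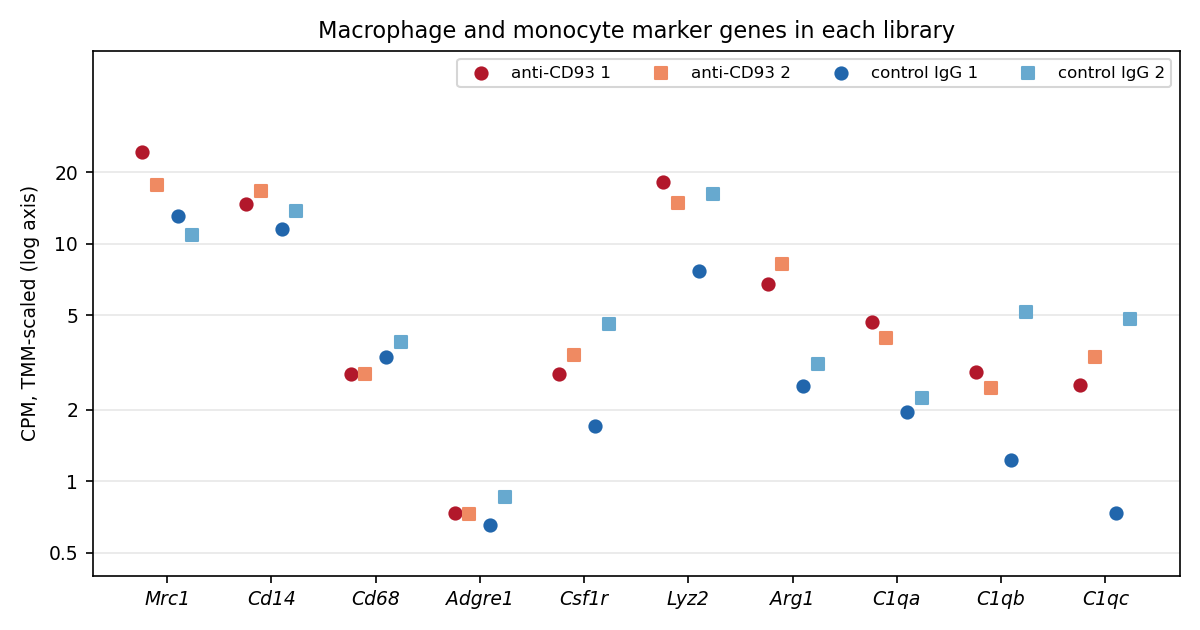
Level of each of the 10 genes in each of the 4 libraries (CPM after TMM scaling, log axis). Red and orange points are the anti-CD93 libraries and dark and light blue points the control IgG libraries, and the groups do not overlap for Mrc1, Cd14, Cd68, Arg1 and C1qa.

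Among the surface receptors, Mrc1 (chromosome 2, 14229392 to 14332057, GRCm38), the mannose receptor, had 429 and 243 reads with anti-CD93 and 160 and 102 reads with control IgG. This was 24.2 and 17.6 CPM in anti-CD93 replicates 1 and 2, against 13.1 and 10.9 CPM in control IgG replicates 1 and 2. The groups did not overlap, and anti-CD93 replicate 1 was the highest. The means were 20.9 ± 4.65 CPM with anti-CD93 and 12.0 ± 1.51 CPM with control IgG (SD, n = 2 each), with a log2 fold change of 0.80 (SE 0.26, unadjusted p = 0.0158 and adjusted p = 0.812 by edgeR). The log2 fold change was 0.69 without control 2 and 0.94 without control 1. Each of these fits has a single control library, assumed to vary like the anti-CD93 libraries. In the fit without control 1, that library is the one that stood apart.

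Markers of lymphatic endothelium, which can carry CD206, were lower in value with anti-CD93, as most pan-endothelial markers were. The lymphatic list of 7 summed to 606 and 647 CPM with anti-CD93 and to 735 and 668 CPM with control IgG. All 6 tested lymphatic markers were lower in value, with 0 called and 0 at an unadjusted p under 0.05. Lyve1 among them was near 0, at a log2 fold change of -0.0033. All 6 were lower without control 2 as well, and 3 of the 6 without control 1. Flt4, the receptor of lymphatic growth factors and the most abundant of the list, was at 422 ± 11.1 CPM with anti-CD93 and 465 ± 20.1 CPM with control IgG (SD, n = 2 each, adjusted p = 0.856 by edgeR), with a log2 fold change of -0.14, and of -0.096 without control 2. Stab1, a scavenger receptor of sinusoidal endothelium and of macrophages, was at 641 ± 7.30 CPM with anti-CD93 and 846 ± 139 CPM with control IgG (log2 fold change -0.40, SE 0.18, adjusted p = 0.812 by edgeR). Its log2 fold change was -0.22 without control 2 and -0.56 without control 1. Among the 12 pan-endothelial markers, 1 was higher and 11 lower in value, with a median log2 change of -0.18. For these 12, 0 were called and 2 had an unadjusted p under 0.05 with all 4 libraries. Without control 2, 4 of them were higher and 8 lower, and without control 1, 0 were higher and 12 lower. The part of lymphatic endothelium in the Mrc1 values was not tested.

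Cd14 (chromosome 18, 36725067 to 36726798), the lipopolysaccharide co-receptor, was at 14.7 and 16.6 CPM with anti-CD93 and at 11.6 and 13.7 CPM with control IgG. The gap between the groups was narrow beside the spread inside them. Its log2 fold change was 0.31 (SE 0.25, adjusted p = 0.815 by edgeR), and it was 0.43 without control 2 and 0.19 without control 1. Of the 9 genes listed for the rest of that receptor complex, 0 were called (1 at an unadjusted p under 0.05), 2 were higher and 7 lower in value, with a median log2 change of -0.070. In the fit without control 2, this turned to 5 higher and 4 lower, with a median of 0.017. Lbp, the lipopolysaccharide carrier, was at 26.3 and 36.3 CPM with anti-CD93 and 45.7 and 47.6 CPM with control IgG (log2 fold change -0.58, SE 0.22, adjusted p = 0.812 by edgeR). Ticam1, an adaptor below TLR4, was at 10.3 and 10.1 CPM with anti-CD93 and 10.6 and 24.7 CPM with control IgG (log2 fold change -0.78). With control 2 left out, Lbp was at -0.55 and Ticam1 at -0.054, and without control 1 they were at -0.61 and -1.27.

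Cd68 (chromosome 11, 69664213 to 69666153), a lysosomal glycoprotein, was the only 1 of the 10 genes with both anti-CD93 libraries below both controls. It had 50 and 39 reads, or 2.82 and 2.83 CPM, with anti-CD93, and 41 and 36 reads, or 3.34 and 3.85 CPM, with control IgG. The difference was smaller than its standard error (log2 fold change -0.34, SE 0.41, adjusted p = 0.857 by edgeR). It was -0.24 without control 2 and -0.45 without control 1 (adjusted p = 0.923 and 0.453 by edgeR). Among 14 other lysosomal proteins 0 were called (1 at an unadjusted p under 0.05), 4 were higher and 10 lower in value, and the median log2 change was -0.094. After leaving out control 2, 8 were higher and 6 lower, with a median of 0.024. Grn, the granulin precursor, was at 171 ± 4.19 CPM with anti-CD93 and 243 ± 60.0 CPM with control IgG (SD, n = 2 each). Ctss, a cathepsin of antigen-presenting cells, was at 14.6 ± 0.294 CPM with anti-CD93 and 9.32 ± 3.02 CPM with control IgG (adjusted p = 0.812 by edgeR for each). Grn had a log2 fold change of -0.51, which was -0.23 without control 2 and -0.74 without control 1. Ctss was at 0.66 in log2, at 1.02 without control 2 and at 0.35 without control 1.

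Csf1r (chromosome 18, 61100598 to 61132149), the receptor of the macrophage growth factors CSF1 and IL-34, was at 2.82 and 3.41 CPM with anti-CD93 and at 1.71 and 4.60 CPM with control IgG. The controls enclosed the anti-CD93 libraries on both sides. Its log2 fold change was -0.0012 (SE 0.54), and it became 0.86 without control 2 and -0.56 without control 1 (adjusted p = 0.692 and 0.316 by edgeR). Exons of Hmgxb3 on the opposite strand cover 15.1% of its exon bases, and reads there cannot be told apart, since counting ignored strand. Its ligand Csf1 was at 24.3 and 20.9 CPM with anti-CD93 and 21.6 and 46.0 CPM with control IgG. Csf2rb, a receptor chain of CSF2, was at 125 and 130 CPM with anti-CD93 and 146 and 207 CPM with control IgG. The adjusted p was 0.812 by edgeR for each. The list counted here held 11 genes and reached beyond the ligands of CSF1R. Its genes were Csf1, Il34, Csf2, Csf2ra, Csf2rb, Csf3, Csf3r, Ccl2, Ccr2, Cx3cl1 and Cx3cr1. Of the 10 tested, 0 were called (0 at an unadjusted p under 0.05). In value, 4 were higher and 6 lower, which turned to 7 higher and 3 lower without control 2. The Csf1 log2 fold change of -0.57 became 0.068 without that library, and that of Csf2rb was -0.19, against -0.47 with all 4 libraries. Without control 1, Csf1 was at -1.02 and Csf2rb at -0.70.

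Adgre1 (chromosome 17, 57358691 to 57483527), which encodes the macrophage antigen F4/80, was close to the limit of counting. It had 13 and 10 reads with anti-CD93 and 8 and 8 reads with control IgG, which was 0.734 and 0.727 CPM with anti-CD93 and 0.653 and 0.856 CPM with control IgG. The exact 95% Poisson intervals of these 4 values, from 0.391 to 1.26 CPM and from 0.348 to 1.34 CPM with anti-CD93 and from 0.282 to 1.29 CPM and from 0.370 to 1.69 CPM with control IgG, all overlapped. They cover counting error only and are too narrow, because each mate of a read pair was counted. The log2 ratio of the mean CPM was -0.047, and it was 0.16 without control 2 and -0.23 without control 1. A difference was not detectable at this depth.

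Lyz2 (chromosome 10, 117277331 to 117282321), the myeloid lysozyme, was at 18.1 and 14.9 CPM with anti-CD93 and at 7.67 and 16.3 CPM with control IgG. Control IgG replicate 2 fell between the anti-CD93 libraries, and control IgG replicate 1 stood below all others. The log2 fold change was 0.48 (SE 0.36, adjusted p = 0.812 by edgeR). It was 1.11 without control 2 (adjusted p = 0.213 by edgeR) and 0.025 without control 1 (adjusted p = 0.945 by edgeR), so the value turned on which control was kept. Lyz2 has a close copy, Lyz1, that could take some of its reads, so its count is uncertain.

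Arg1 (chromosome 10, 24915221 to 24927484), the arginase that turns arginine into ornithine and marks alternatively activated macrophages, had the largest fold change of the 9 tested genes with all 4 libraries, though C1qc exceeded it without control 2 (1.98 in log2). It had 120 and 113 reads with anti-CD93 and 31 and 29 reads with control IgG. This was 6.78 and 8.21 CPM in the anti-CD93 libraries, against 2.53 and 3.10 CPM in the control IgG libraries, with no overlap. The means were 7.49 ± 1.01 CPM with anti-CD93 and 2.82 ± 0.407 CPM with control IgG (SD, n = 2 each), a log2 fold change of 1.41 (SE 0.36, unadjusted p = 0.00476 and adjusted p = 0.812 by edgeR). It was 1.56 without control 2 (adjusted p = 0.233 by edgeR), and 1.27 without control 1, where it passed (adjusted p = 0.0255 by edgeR) in the fit that called 26.8% of all genes. Without anti-CD93 replicate 1 or 2 it was 1.55 or 1.27 (adjusted p = 1 by edgeR in each).

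Other genes of arginine metabolism were mostly lower in value with anti-CD93. Of 8 tested, 0 were called (1 at an unadjusted p under 0.05), 1 was higher and 7 were lower, and 3 were higher and 5 lower without control 2. The arginine transporter gene Slc7a2 was at 4.24 and 4.29 CPM with anti-CD93 and at 2.45 and 2.57 CPM with control IgG (log2 fold change 0.76, SE 0.40). Nos3, the endothelial nitric oxide synthase that uses the same arginine, was at 124 and 155 CPM with anti-CD93 and at 187 and 237 CPM with control IgG (log2 fold change -0.60, SE 0.20). Both had an adjusted p of 0.812 by edgeR. In the fit without control 2, Slc7a2 was at 0.80 and Nos3 at -0.42, and without control 1 they were at 0.73 and -0.77.

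Tumour epithelial and erythroid markers were in part higher in value in the same libraries as Arg1 and Mrc1. The 7 epithelial markers summed to 2405 and 2003 CPM with anti-CD93 and to 1678 and 2466 CPM with control IgG. Of these, 5 were higher and 2 lower in value, with 0 called and 3 at an unadjusted p under 0.05 (4.49% of all genes). For the same 3, Muc1, Epcam and Cdh1, named after their values were seen, both anti-CD93 libraries lay above both controls (20.1% of all genes). Muc1, a membrane mucin, was at 78.5 and 72.0 CPM with anti-CD93 and at 35.2 and 48.1 CPM with control IgG (log2 fold change 0.86, SE 0.21, unadjusted p = 0.00395 and adjusted p = 0.812 by edgeR). Epcam, an epithelial adhesion molecule, was at 34.1 and 41.1 CPM with anti-CD93 and at 21.7 and 23.4 CPM with control IgG (log2 fold change 0.74). Cdh1, the epithelial cadherin, was at 351 and 290.0 CPM with anti-CD93 and at 216 and 210.4 CPM with control IgG (log2 fold change 0.59). Krt8, the most abundant of the list, was at 855 and 712 CPM with anti-CD93 and at 617 and 937 CPM with control IgG, and its groups overlapped (log2 fold change 0.013). With control 2 left out, all 7 were higher in value, with a median log2 change of 0.41 against 0.18 with all 4 libraries. After leaving out control 1, the median was -0.017. Muc1, Epcam and Cdh1 were then at 0.65, 0.68 and 0.61 in log2, and the keratin gene Krt18 was at -0.43.

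Erythroid genes summed to 28.4 and 18.8 CPM with anti-CD93 and to 9.22 and 19.9 CPM with control IgG. Of the 5 tested, 4 were higher and 1 lower in value, with 0 called and 2 at an unadjusted p under 0.05 (4.49% of all genes). For the same 2, both anti-CD93 libraries lay above both controls (20.1% of all genes). Hbb-bt, a beta-globin gene picked after its values were seen, had 52 and 29 reads with anti-CD93 and 1 and 1 reads with control IgG. Its log2 fold change was 4.63 with all 4 libraries (unadjusted p = 0.000481 and adjusted p = 0.812 by edgeR). It was 4.82 without control 2 and 4.45 without control 1. Hba-a2, an alpha-globin gene picked in the same way, was at 7.63 and 3.85 CPM with anti-CD93 and at 2.04 and 1.93 CPM with control IgG (log2 fold change 1.53, SE 0.47, unadjusted p = 0.0118 and adjusted p = 0.812 by edgeR). Hba-a1, the most abundant of the list, was at 9.27 and 5.30 CPM with anti-CD93 and at 2.37 and 8.46 CPM with control IgG. Globin genes have near-identical copies, so the split of reads between copies is uncertain. In the fit without control 2, the erythroid median log2 change was 1.63, against 0.48 with all 4 libraries, and without control 1 it was 0.061. The part of epithelial and erythroid RNA in the values of Arg1 and Mrc1 was not tested.

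**Figure D3:**
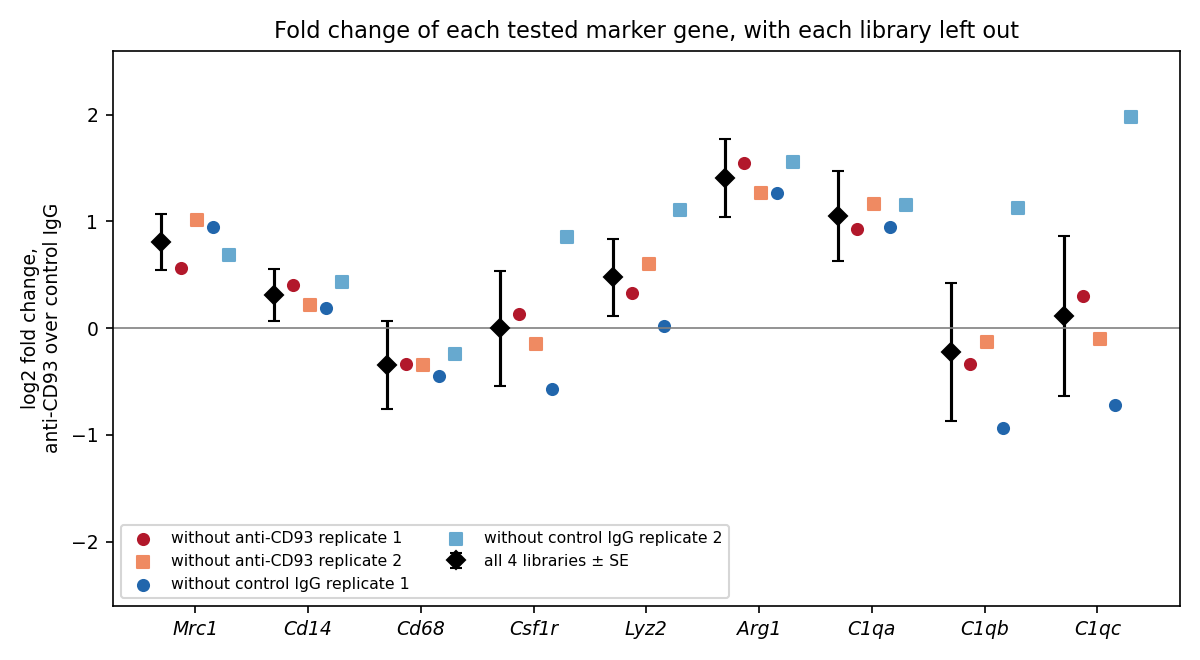
Log2 fold change of the 9 tested genes, anti-CD93 over control IgG. Black diamonds are the fit of all 4 libraries with its SE, and coloured points are fits without 1 library each. Mrc1, Cd14, Lyz2, Arg1 and C1qa stay above 0 in every fit shown, and Csf1r, C1qb and C1qc change sign with the control library that is left out.

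The 3 chains of C1q, which lie side by side on chromosome 4 and are assembled into 1 protein, were spread differently over the libraries. C1qa (136895917 to 136898803) was at 4.69 and 4.00 CPM with anti-CD93 and at 1.96 and 2.25 CPM with control IgG, with no overlap (log2 fold change 1.05, SE 0.42, unadjusted p = 0.0366 and adjusted p = 0.812 by edgeR). C1qb (136880129 to 136886187) was at 2.88 and 2.47 CPM with anti-CD93 and at 1.22 and 5.14 CPM with control IgG. C1qc (136889804 to 136893065) was at 2.54 and 3.34 CPM with anti-CD93 and at 0.734 and 4.82 CPM with control IgG. For the last pair, control IgG replicate 1 was the lowest library and control IgG replicate 2 the highest. The log2 fold changes were -0.22 (SE 0.65, adjusted p = 0.944 by edgeR) for C1qb and 0.11 (SE 0.75, adjusted p = 0.976 by edgeR) for C1qc. With control 2 left out, all 3 were above 0, at 1.15, 1.13 and 1.98 (adjusted p = 0.541, 0.638 and 0.377 by edgeR). After leaving out control 1, C1qa was at 0.95, C1qb at -0.93 and C1qc at -0.72 (adjusted p = 0.124, 0.102 and 0.213 by edgeR).

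The make-up of the C1q reads set control IgG replicate 2 apart. C1qa gave 46.4% of the 179 reads of the 3 genes in anti-CD93 replicate 1 (exact 95% binomial interval 38.9% to 54.0%) and 40.7% of 135 reads in anti-CD93 replicate 2 (32.4% to 49.5%). It gave 50% of 48 reads in control IgG replicate 1 (35.2% to 64.8%) and 18.4% of 114 reads in control IgG replicate 2 (11.8% to 26.8%). The interval of that last library lay below those of the other 3 libraries, which overlapped each other. The intervals cover counting error only and, with both mates counted, are too narrow. Summed over the 3 genes, C1q was at 10.1 and 9.81 CPM with anti-CD93 and at 3.92 and 12.2 CPM with control IgG, so the control libraries enclosed the anti-CD93 libraries.

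**Figure D4:**
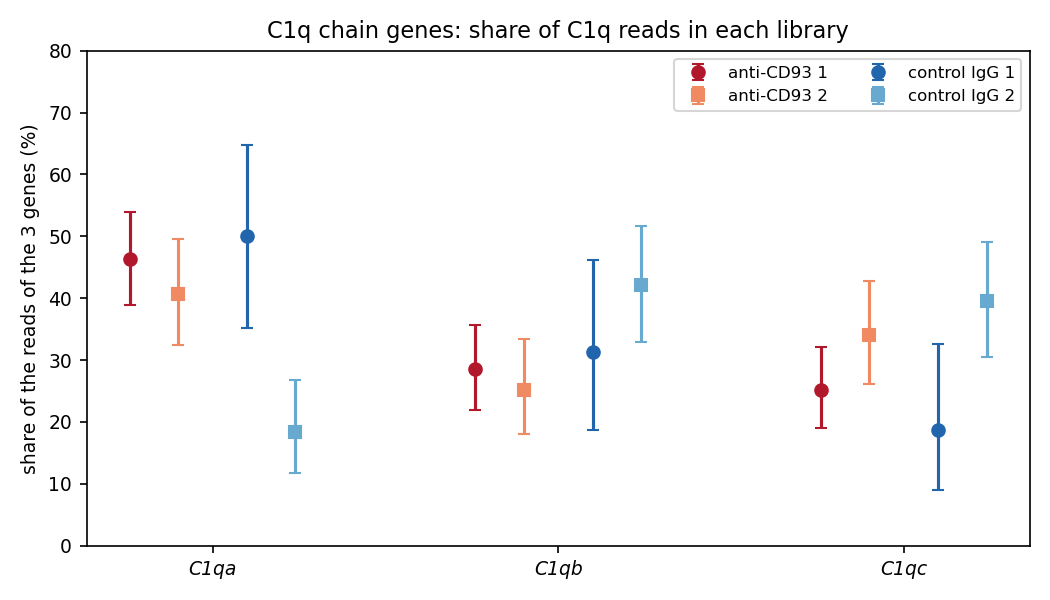
Share of the reads of C1qa, C1qb and C1qc that each gene takes in each library (%), with exact 95% binomial intervals. C1qa takes 18.4% in control IgG replicate 2 and 40.7% to 50% in the other 3 libraries.

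Other complement genes were mostly lower in value. Of 14 components and regulators beside C1q 0 were called (2 at an unadjusted p under 0.05), 5 were higher and 9 lower in value with anti-CD93, with a median log2 change of -0.37. In the fit without control 2, the counts were again 5 higher and 9 lower, with a median of -0.090. C4b, which the C1 complex cleaves through C1s, was at 5.42 and 8.72 CPM with anti-CD93 and at 11.1 and 20.0 CPM with control IgG (log2 fold change -1.14, SE 0.38). C3, the central component, was at 25.8 and 36.0 CPM with anti-CD93 and at 39.8 and 85.7 CPM with control IgG (log2 fold change -1.02, SE 0.35). Both had an adjusted p of 0.812 by edgeR, and control IgG replicate 2 was the highest library for each. Without it, C4b was at -0.66 and C3 at -0.37 in log2 (adjusted p = 0.656 and 0.689 by edgeR). With control 1 left out, C4b was at -1.51 and C3 at -1.48.

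Further macrophage genes were split between the directions. Among 20 other macrophage markers, 14 were tested, 8 were higher and 6 lower in value and 0 were called (0 at an unadjusted p under 0.05), with a median log2 change of 0.079. After leaving out control 2, 11 were higher and 3 lower (median 0.67), and without control 1, 4 were higher and 10 lower (median -0.31). Most of their summed level came from genes that other cells make too, led by Spp1, osteopontin, at 242 ± 47.1 CPM with anti-CD93 and 194 ± 0.709 CPM with control IgG (SD, n = 2 each), with a log2 fold change of 0.32 both with all 4 libraries and without control 2. Of the 20, 5 were below 1 CPM in all libraries. The phagocytic receptor Trem2, picked after its values were seen, had 10 and 4 reads with anti-CD93 and 0 and 0 reads with control IgG. Spi1, which encodes PU.1 and was picked in the same way, had 4 and 8 reads with anti-CD93 and 4 and 6 reads with control IgG. Of the 9 tested macrophage transcription factors 0 were called (1 at an unadjusted p under 0.05), 4 were higher and 5 lower in value, and the counts without control 2 were again 4 and 5. Runx1, a blood and endothelial factor, was at 57.6 ± 3.75 CPM with anti-CD93 and 38.7 ± 8.66 CPM with control IgG, and Irf8, a myeloid and interferon-induced factor, at 47.6 ± 1.41 CPM with anti-CD93 and 62.7 ± 5.90 CPM with control IgG (SD, n = 2 each, adjusted p = 0.812 by edgeR for each). Runx1 had a log2 fold change of 0.57, which was 0.36 without control 2, and Irf8 one of -0.40, which was -0.30. Without control 1, Runx1 was at 0.82 and Irf8 at -0.49.

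Signalling partners of phagocytic receptors lay mostly lower in value. Of the 6 tested Fc receptors and ITAM adaptors 2 were higher and 4 lower, with the same counts without control 2, and 0 were called (1 at an unadjusted p under 0.05 with all 4 libraries). Tyrobp, the adaptor DAP12, had 8 and 6 reads, or 0.452 and 0.436 CPM, with anti-CD93, and 12 and 20 reads, or 0.979 and 2.14 CPM, with control IgG. Syk, the kinase below it, was at 47.4 and 63.3 CPM with anti-CD93 and 64.0 and 72.1 CPM with control IgG. Of 9 tested scavenger and lectin receptors, 4 were higher and 5 lower in value and 0 were called (2 at an unadjusted p under 0.05), and 5 were higher and 4 lower without control 2. Cd36, a fatty acid and scavenger receptor of capillaries and macrophages, was at 400.4 and 296 CPM with anti-CD93 and 239 and 171 CPM with control IgG (log2 fold change 0.77, SE 0.23). Clec7a, the beta-glucan receptor dectin-1, was at 2.15 and 3.78 CPM with anti-CD93 and 0.979 and 0.856 CPM with control IgG (log2 fold change 1.67, SE 0.57). The adjusted p of these 4 genes was 0.812 by edgeR. In the fit without control 2, log2 fold changes were -1.13 for Tyrobp against -1.77 with all 4 libraries, -0.22 for Syk against -0.30, 0.54 for Cd36 and 1.57 for Clec7a. Without control 1, Tyrobp was at -2.245, Syk at -0.38, Cd36 at 1.03 and Clec7a at 1.765.

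Summed over the 10 genes, the level was 80.3 and 74.2 CPM with anti-CD93 and 44.5 and 65.5 CPM with control IgG. The means were 77.3 ± 4.35 CPM with anti-CD93 and 55.0 ± 14.9 CPM with control IgG (SD, n = 2 each). Their ratio was 1.41, and it was 1.74 without control 2 and 1.18 without control 1. Mrc1, Lyz2 and Cd14 made up most of the sum in each library. Without Mrc1, the sum was 56.1 and 56.5 CPM with anti-CD93 and 31.4 and 54.6 CPM with control IgG. The sum of all 10 genes was 4.84% and 4.46% of the Pecam1 level in the anti-CD93 libraries and 2.64% and 3.50% in the control IgG libraries. Ptprc had 90 and 32 reads with anti-CD93 and 29 and 44 reads with control IgG. The sum of the 10 genes was 15.8 and 31.9 times the Ptprc CPM with anti-CD93 and 18.8 and 13.9 times with control IgG. These ratios rest on few Ptprc reads. The leukocyte list of 13 genes summed to 239 and 210 CPM with anti-CD93 and to 223 and 300.3 CPM with control IgG, with 2 tested genes higher and 10 lower in value, 0 called and 1 at an unadjusted p under 0.05. With control 2 left out, 10 leukocyte genes were higher and 2 lower (median log2 change 0.53), and without control 1, 0 were higher and 12 lower (median -0.67), against -0.13 with all 4 libraries. Most of the sum of this list came from Lcp1 and Hcls1. The actin bundler Lcp1, its largest member, was at 127 ± 12.7 CPM with anti-CD93 and 134 ± 20.5 CPM with control IgG (SD, n = 2 each). The Lcp1 log2 fold change of -0.078 became 0.086 without control 2. Hcls1 was at means of 67.2 CPM with anti-CD93 and 93.1 CPM with control IgG. Ptprc, in the same list, was at means of only 3.705 and 3.538 CPM. The part of leukocytes left in the sort in any value above was not tested.

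**Figure D5:**
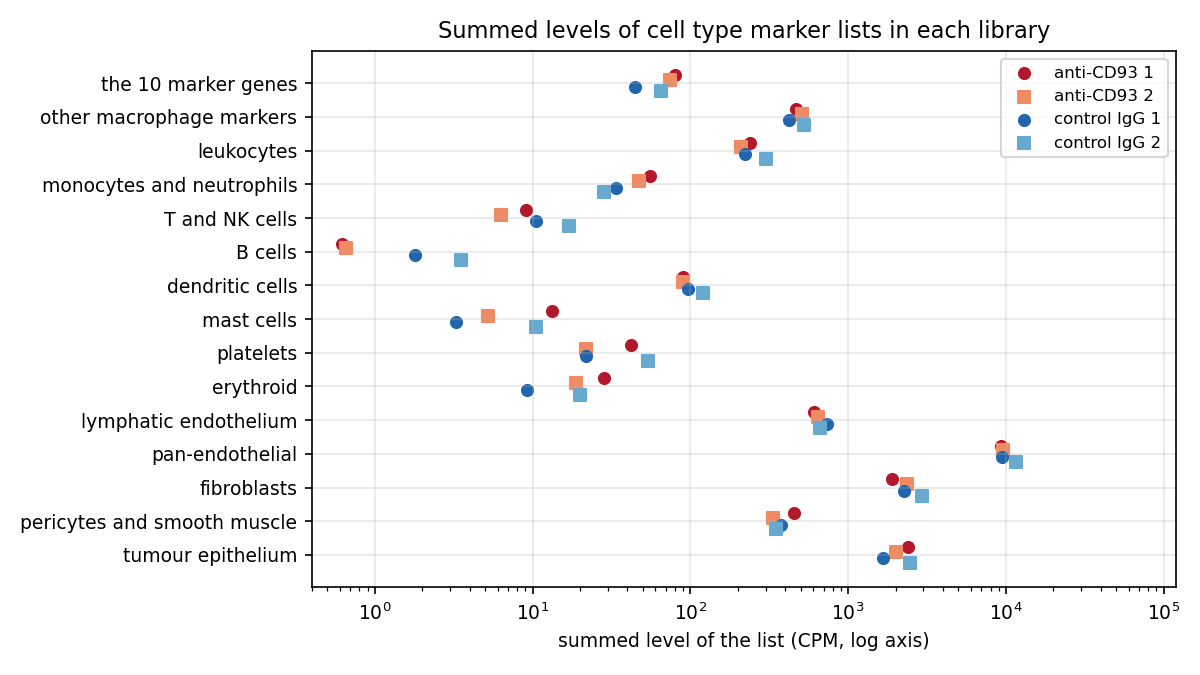
Summed level of each marker list in each library (CPM, log axis), with red and orange points for anti-CD93 and dark and light blue points for control IgG. The 10 genes sum to 44.5 to 80.3 CPM, far below the pan-endothelial list. The leukocyte list, at 210 to 300.3 CPM, draws most of its sum from Lcp1 and Hcls1.

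The 5 genes whose log2 CPM over the 4 libraries, centred on its mean, lay nearest to that of the summed level were Inava, Mtcl1, Gys1, Mettl5 and Elovl6, at Euclidean distances of 0.0346 to 0.0805 among 10236 candidates with a mean of at least 5 CPM. Inava, for example, was at 22.3 and 20.9 CPM with anti-CD93 and at 12.4 and 17.9 CPM with control IgG. With 4 libraries this likeness is a description only.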

How the data were processed

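RNA was measured in 4 libraries of sorted tumour cells, 2 per treatment, grouped by the sample titles. Per the file headers, the deposited read counts come from featureCounts 2.0.1 with the GENCODE vM25 annotation of GRCm38, by gene name and without paired-end or strand options, so each mate counted on its own: 66.3% to 74.8% of the counts from 1 to 10 were even. STAR 2.7.5b and DESeq2 1.28.1 are named in the submitters' processing notes. A table deposited as normalized was identical to these counts (0 of 221468 cells differed). Here counts were filtered with filterByExpr (minimum count 10, which left 16945 genes), scaled by TMM, and compared by the quasi-likelihood test of edgeR 4.0.16 in R 4.3.3 with robust dispersion, the group as the only term and adjustment over all tested genes. The script was tested on simulated data. RPKM used the deposited exon lengths. Lists are described by counts and medians; summed levels have no test. Members and lists were chosen with earlier results of these data known. Named beside the 10 genes are, per pathway list, the 2 genes of smallest p and, for the cell type lists discussed, the gene of highest mean CPM. Genes said to be picked later are apart from this rule. Others were named outside it as well, among them Erg, Hcls1, Krt18, the lymphatic markers beside Flt4 and the T cell genes beside Lck. Alternatives were other scalings and count filters, DESeq2 1.42.0, limma-voom (limma 3.58.1), no robust dispersion, halved counts, a replicate block, an adjusted p under 0.1, and each library left out with the tested genes kept. With 2 libraries per group and 8 to 429 reads per gene and library, precision is low.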

Additional observations from a re-analysis of the deposited data

How the results depend on the processing

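Of the 10 genes, 0 were called under the other scalings, both count filters, DESeq2, limma-voom, no robust dispersion, halved counts, the replicate block or an adjusted p under 0.1. Leaving out a library gave 0 to 2 called, the 2 being Mrc1 and Arg1 without control IgG replicate 1. Over all genes, 48 were called with no count filter, 5 by DESeq2, 14 with the replicate block and 0 to 4549 with a library left out. The ratio of the summed level ran from 1.18 to 1.74 with a library left out (1.74 without control IgG replicate 2). Of the 122 values of the 9 tested genes under alternatives, 13 turned sign and 0 of these passed, and 2 of the 6 values of Adgre1 turned sign. The Csf1r log2 fold change of -0.0012 became 0.00115 with RLE size factors, 0.060 with no count filter, 0.012 by DESeq2, 0.20 by limma-voom, 0.029 with halved counts, 0.12 with the replicate block and, with a library left out, -0.56 to 0.86 (0.14 without anti-CD93 replicate 1 and 0.86 without control IgG replicate 2). C1qb became 0.21 by limma-voom, 0.033 with the replicate block and -0.93 to 1.13 with a library left out (1.13 without control IgG replicate 2), and C1qc -0.72 to 1.98 (-0.10 without anti-CD93 replicate 2 and -0.72 without control IgG replicate 1). The cause of these shifts was not tested. Deviations of same-numbered libraries correlated at -0.022 across 16945 genes, and genes are not independent replicates. The labels do not say whether same-numbered libraries were paired, and with 2 libraries per group this correlation cannot decide it. With a minimum count of 50, 5 of the 10 genes could be tested. Depth limits Adgre1 most, and its log2 ratio of -0.047 became 0.011 with no count filter and 0.16 without control IgG replicate 2. Leaving out a control library for the list genes and list counts was added after the data were seen.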

Other observations

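Other cell types outside the gate were read at levels that also differed between libraries. The mast cell list summed to 13.3 and 5.23 CPM with anti-CD93 and to 3.26 and 10.6 CPM with control IgG, and the platelet list to 42.3 and 21.9 CPM with anti-CD93 and to 21.8 and 54.2 CPM with control IgG. T and NK cell genes summed to 9.04 and 6.32 CPM with anti-CD93 and to 10.5 and 17.0 CPM with control IgG. Most of it came from Lck, a kinase of T cells, at 5.14 and 4.72 CPM with anti-CD93 and 7.75 and 12.7 CPM with control IgG (adjusted p = 0.812 by edgeR). The T cell receptor genes Cd3e and Trac had few reads, and their groups overlapped. Cd3e had 7 and 4 reads with anti-CD93 and 0 and 5 with control IgG, and Trac 9 and 5 with anti-CD93 and 2 and 8 with control IgG. Cd8b1 had 2 and 4 reads with anti-CD93 and 4 and 6 with control IgG, and its CPM values were lower without overlap, as for Lck. Mean CPM with anti-CD93 was lower for Cd4 and Cd8a and higher for Cd3d and Cd3g, each with overlap. The Lck log2 fold change of -1.05 was -0.65 without control IgG replicate 2 and -1.36 without control IgG replicate 1. B cell genes summed to 0.621 and 0.654 CPM with anti-CD93 and to 1.79 and 3.53 CPM with control IgG, and 0 of the 6 were tested. Dendritic cell genes summed to 90.4 and 89.7 CPM with anti-CD93 and to 97.1 and 120 CPM with control IgG, led by Zbtb46, a transcription factor that endothelial cells make too. In the monocyte and neutrophil list, 7 of 10 genes were below 1 CPM in all libraries, and most of its sum came from Plac8, a small cysteine-rich protein gene, at 52.7 and 44.8 CPM with anti-CD93 and 30.4 and 24.8 CPM with control IgG (log2 fold change 0.82, SE 0.21, adjusted p = 0.812 by edgeR). The Plac8 log2 fold change was 0.68 without control IgG replicate 2 and 0.97 without control IgG replicate 1.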
